A study of Homo sapiens with 6 samples.

Results

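Matrix metalloproteases and their relatives are described here in HepaRG cells: the 65 protein-coding genes of 58735 in the count table whose names follow the pattern of a numbered MMP, TIMP, ADAM or ADAMTS gene. They comprise 22 MMP, 4 TIMP, 20 ADAM and 19 ADAMTS genes, and the choice follows their names alone, although it was made with earlier results of these data known. HepaRG is a human hepatic progenitor line that becomes hepatocyte-like and biliary-like in DMSO. Per the labels' protocols, all cells were differentiated with 1.8% DMSO, given siRNA for 48 h, and then exposed for 24 h to 800 µM oleic and 400 µM palmitic acid. The siRNAs of the study were against STAT3, against PTPRD or control. The 6 libraries of polyadenylated RNA analysed here carried the treatment labels PTPF (n = 3) or STATF (n = 3), abbreviations that the labels leave unexplained. None of the 6 was labelled as control siRNA, and no control baseline is given here. All came from a single cell line, and nothing in the labels says whether replicates were separate cultures, so a p-value here reflects library-to-library spread that may be technical.

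MMPs are zinc-dependent proteases that cut collagens and other matrix proteins. Most are secreted as inactive precursors, while the membrane-type members stay anchored at the cell surface. TIMPs are small secreted proteins that block the active site of MMPs and of some ADAMs. ADAMs are membrane proteins, and the catalytically active ones release the outer parts of growth factors, cytokine receptors and adhesion proteins, whereas ADAMTS proteases are secreted and act on proteoglycans, procollagens and other matrix components. In the liver these families are known for the turnover of scar matrix.

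Gene counts totalled 33225627 to 40796767 per library. Levels are given as CPM, counts scaled to library size with edgeR's TMM factors. A gene listed at 0 could still have had up to 3 counts, equal to 0.0720 to 0.0919 CPM, a limit that covers counting error only. Under the PTPF label STAT3 was 3.71-fold higher (log2 fold change 1.89, standard error (SE) 0.063, edgeR adjusted p = 2.47e-18), while PTPRD did not separate the groups (95% interval of the log2 fold change -0.19 to 0.19). Directions below are therefore between libraries by label, and positive log2 fold changes stand for higher levels under the PTPF label. Mitochondrial genes took 17.6% to 18.5% of counts in the PTPF-labelled and 18.7% to 19.5% in the STATF-labelled libraries, and whether this share bears on the results was not tested.

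Of the 65 genes, 40 had enough counts to be tested and 17 of these differed, 8 higher and 9 lower in the PTPF-labelled libraries. Of all 17844 genes tested, 21.6% passed the same threshold, an adjusted p of 0.05 in edgeR's quasi-likelihood test, 10.1% higher and 11.6% lower. Among protein-coding genes whose mean log2 CPM was 1 or more, 28.3% passed, and 15 of the 28 metalloprotease and TIMP genes at that level did. The differences went both ways in each family, with 2 MMPs higher and 4 lower of 12 tested, 1 TIMP higher and 1 lower of 3, 2 ADAMs higher and 3 lower of 13, and 3 ADAMTS genes higher and 1 lower of 12. Median log2 fold changes were -0.12 for MMPs, 0.17 for TIMPs, -0.01 for ADAMs and 0.17 for ADAMTS genes, against 0.00 for all genes tested. The TIMP median is the value of TIMP3, a gene of low count, and the medians of TIMPs, ADAMs and ADAMTS genes changed sign without the filter on low counts (-0.0480, 0.0729 and -0.0067) and with DESeq2 (-0.0388, 0.0770 and -0.00025). The TIMP median was also below 0 without PTPF replicate 3 (-0.0245) or STATF replicate 1 (-0.0398). In 21 of the 40 genes the ranges of the groups did not overlap, against 35.7% of all genes tested. Most differences were small, 12 of the 17 being under 1.5-fold and 2 over 2-fold. In bulk RNA, fewer cells of a type and less RNA per cell cannot be told apart.

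**Figure D1:**
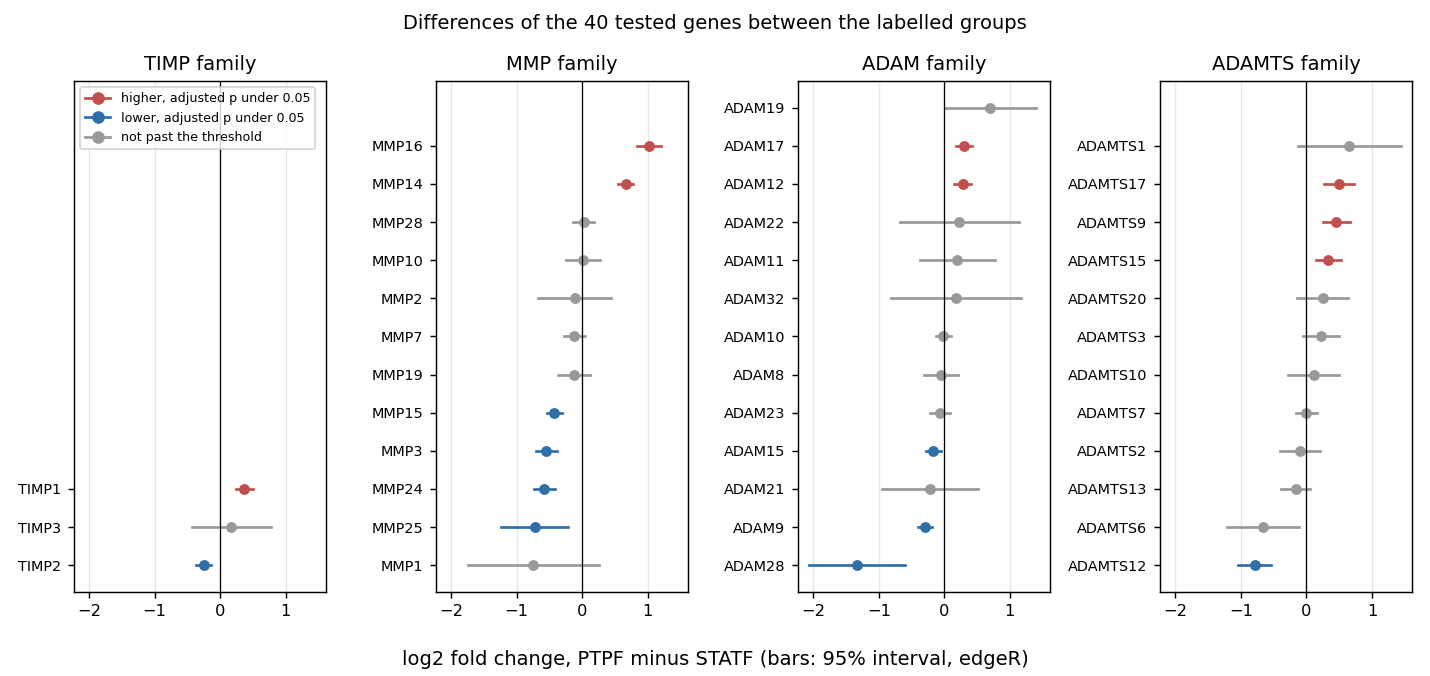
Log2 fold change (PTPF minus STATF, horizontal axis) of each of the 40 tested genes, in 4 panels by family; points are edgeR estimates and bars 95% intervals, red for higher, blue for lower and grey for genes not past an adjusted p of 0.05. MMP16 and MMP14 lie to the right and MMP15, MMP3, MMP24 and MMP25 to the left, and wide grey bars belong to genes of low count such as MMP1 and ADAM32.

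The inhibitors were dominated by TIMP1, a secreted glycoprotein that blocks most soluble MMPs. TIMP1 (chromosome X, 47582313 to 47586789, GRCh38) stood at 1086, 929.8 and 921 CPM in the PTPF-labelled and at 750.0, 766 and 755 CPM in the STATF-labelled libraries. All of the former lay above all of the latter, and PTPF replicate 1 was the highest. The difference was 1.29-fold (log2 fold change 0.37, SE 0.064, edgeR adjusted p = 8.70e-05). TIMP2, which besides inhibiting MMPs takes part with MMP14 in activating pro-MMP2, went the other way. TIMP2 (chromosome 17, 78852977 to 78925387) was at 249, 242 and 253 CPM against 310.5, 291 and 285 CPM. The groups did not overlap, the log2 fold change being -0.25 (SE 0.056, edgeR adjusted p = 0.00128), and 10.03% of its exon bases also belong to other annotated genes, CEP295NL and AC022966.1, which had 23 and 0 counts in all.

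TIMP3, the matrix-bound inhibitor that also acts on ADAM17, had 30, 29 and 40 counts in the PTPF-labelled and 22, 42 and 37 in the STATF-labelled libraries, and the groups overlapped (edgeR adjusted p = 0.747, 95% interval of the log2 fold change -0.43 to 0.77). TIMP4 had 16 counts over the 6 libraries and was not tested. Per kilobase of deposited gene length, the scale used here to compare levels between genes, TIMP1 was at 635 ± 60.2 CPM per kilobase against 491 ± 5.27, and TIMP2 at 44.0 ± 1.04 against 52.4 ± 2.38 (SD, n = 3 each). TIMP1 thus made up 93.0% to 94.1% of the summed TIMP level in the PTPF-labelled and 89.8% to 90.6% in the STATF-labelled libraries. The TIMP1 to TIMP2 ratio within a library, which no scaling between libraries touches, was 15.9, 14.1 and 13.3 in the former and 8.83, 9.62 and 9.69 in the latter.

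Among membrane-type MMPs, which cut matrix at the cell surface, each of the 5 tested genes passed the threshold, 2 higher and 3 lower. Of all genes tested, 21.6% passed it. MMP14, the collagen-degrading activator of pro-MMP2 and the most abundant MMP here, lies on chromosome 14 from 22836557 to 22849027. It stood at 308, 311 and 296 CPM in the PTPF-labelled and 206, 187 and 186 CPM in the STATF-labelled libraries. Its groups lay far apart relative to their spread, by 0.66 on the log2 scale (SE 0.057, edgeR adjusted p = 9.93e-10). The related MMP16 was at 16.1, 18.4 and 18.0 CPM against 7.76, 9.34 and 8.71 CPM. That 2.03-fold difference (log2 fold change 1.02, SE 0.090, edgeR adjusted p = 1.63e-09) was the only one among the 65 genes that also passed a test against a change of 1.5-fold.

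MMP15, a membrane-type protease of epithelia and the next most abundant MMP, showed the reverse, at 88.1, 82.6 and 88.7 CPM in the PTPF-labelled and 121, 117 and 110.5 CPM in the STATF-labelled libraries. The groups did not overlap, and its log2 fold change was -0.43 (SE 0.056, edgeR adjusted p = 1.51e-06). MMP24, a member best known from neurons, was at 14.4, 14.3 and 15.4 CPM against 23.3, 20.0 and 22.4 CPM. It was lower in every PTPF-labelled library than in any other (log2 fold change -0.58, SE 0.078, edgeR adjusted p = 2.47e-06). Of its exon bases, 21.8% are shared with genes on the opposite strand, among them MMP24OS, whose log2 fold change was -0.32 (edgeR adjusted p = 0.000362). As the strand setting of the counting is not given in the sources used here, reads of the overlapping genes cannot be told apart. MMP25, which is held in the membrane by a lipid anchor, had 24, 47 and 28 counts against 54, 63 and 68 (log2 fold change -0.72, SE 0.249, edgeR adjusted p = 0.0375). It shares 35.2% of its exon bases with MMP25-AS1, which had a log2 fold change of -0.45 (edgeR adjusted p = 0.0175). The MMP25 call was lost when any library other than PTPF replicate 2 was left out (adjusted p 0.0590 to 0.157) and with DESeq2 (adjusted p = 0.105). MMP17, the other gene of this class, was listed at 0 in all libraries.

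**Figure D2:**
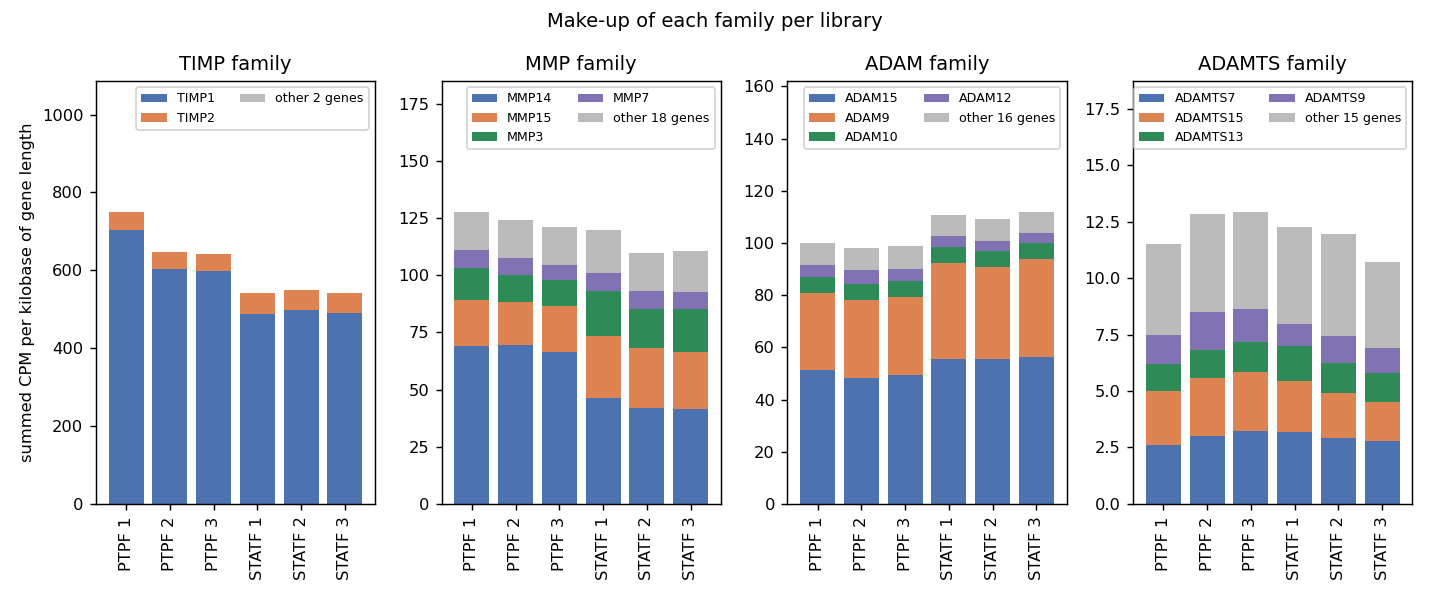
Summed level of each family (vertical axis, CPM per kilobase of gene length, starting at 0) in each of the 6 libraries (bars), split by the most abundant genes. MMP14 fills 54.1% to 56.2% of the MMP bar in the PTPF-labelled and 37.6% to 38.5% in the STATF-labelled libraries, whereas ADAM15 fills about the same share of the ADAM bar in all 6.

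The make-up of the MMP family shifted accordingly. MMP14 accounted for 55.0% ± 1.04 of the summed MMP level per kilobase in the PTPF-labelled and 38.1% ± 0.473 in the STATF-labelled libraries (SD, n = 3 each). Summed over all 22 MMPs the level was 124 ± 3.27 against 113 ± 5.55 CPM per kilobase (SD, n = 3 each). Those sums lay next to each other, from 120.9 upwards in the PTPF-labelled libraries and up to 119.7 in the others. Within a library, MMP14 exceeded MMP15 per kilobase by 3.46, 3.73 and 3.30 times in the PTPF-labelled and by 1.68, 1.58 and 1.66 times in the STATF-labelled libraries.

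The secreted MMPs were all below MMP14 and MMP15 per kilobase, and most of those tested did not pass the threshold. MMP3 (stromelysin-1), which degrades many matrix proteins and activates other pro-MMPs, was the exception, at 29.4, 24.3 and 23.8 CPM in the PTPF-labelled and 40.0, 34.9 and 38.4 CPM in the STATF-labelled libraries. Its groups did not overlap (log2 fold change -0.55, SE 0.077, edgeR adjusted p = 6.03e-06). MMP3 sits in a run of 9 MMP genes on chromosome 11, between 102520508 and 102955734, of which 4 were tested. Elsewhere in this run, MMP10 (stromelysin-2) and MMP7 (matrilysin, an epithelial protease) did not pass. Their 95% intervals of the log2 fold change were from -0.25 to 0.28 and from -0.28 to 0.04. The collagenase MMP1, in the same run, had 15, 10 and 3 counts against 20, 25 and 9, too few to place its difference more closely than -1.74 to 0.25. The remaining 5 genes of the run had 1 to 40 counts in all.

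The gelatinases, which cut denatured collagen and basement membrane, were scarce. MMP2 had 21, 44 and 45 counts against 43, 52 and 41, with overlapping groups (edgeR adjusted p = 0.819), and MMP9 had 11 counts in all 6 libraries together. MMP28, a secreted MMP of epithelia, did not pass, with an interval from -0.14 to 0.19, and MMP19 did not either. Altogether 25 of the 65 genes were too low to test. Of these 4 (MMP17, MMP26, ADAM30 and ADAM33) were listed at 0 throughout, and the other 21 had at most 13 counts in any library.

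**Figure D3:**
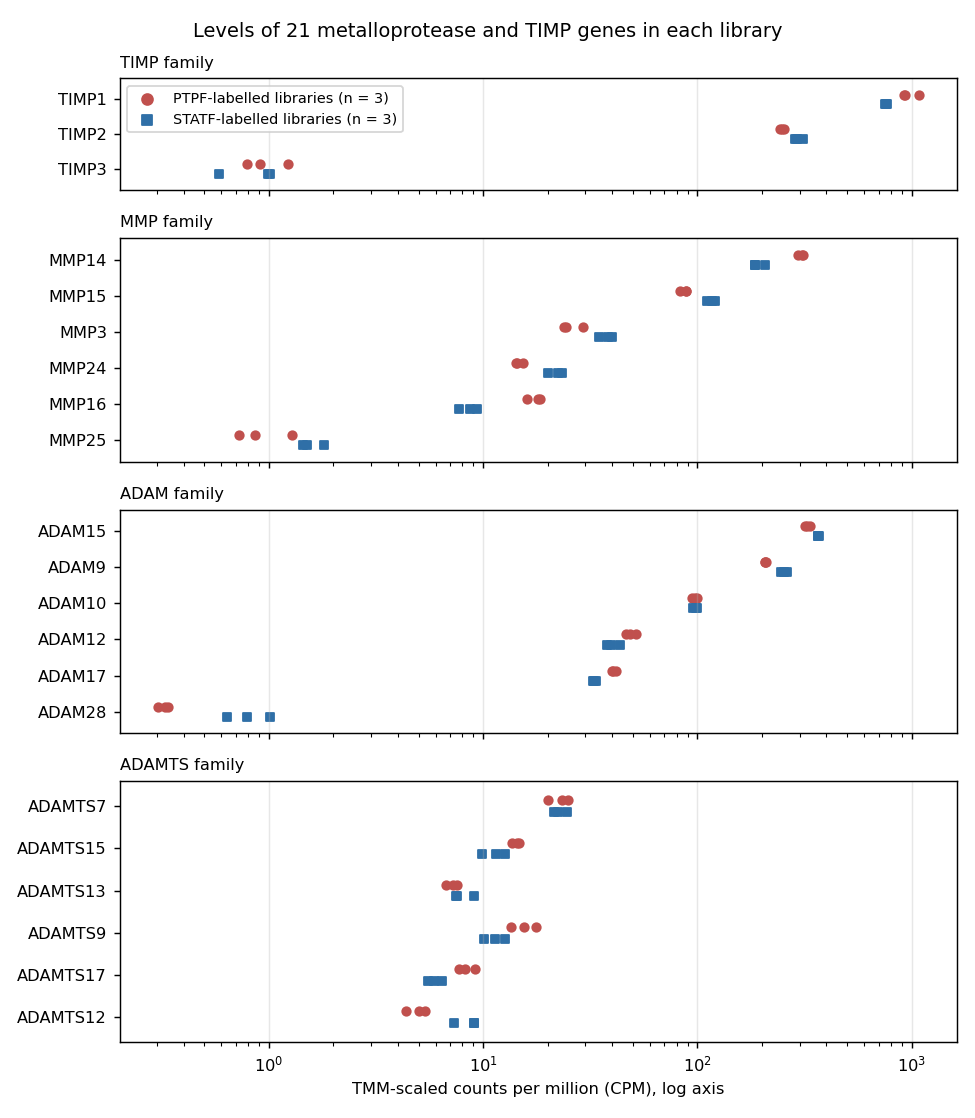
CPM of 21 genes (horizontal log axis) in each library, in 4 panels by family, with circles for the 3 PTPF-labelled and squares for the 3 STATF-labelled libraries. Genes are those past the threshold and the 3 most abundant of each family; circles and squares are apart for the 17 called genes and overlap for TIMP3, ADAM10, ADAMTS7 and ADAMTS13.

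Of 9 tested ADAMs with protease activity, 2 were higher and 3 lower, all but ADAM28 by under 1.5-fold. Over all genes tested, 10.1% were higher and 11.6% lower. ADAM17, the enzyme that sheds tumour necrosis factor and ligands of the epidermal growth factor receptor, was at 40.1, 40.4 and 41.8 CPM in the PTPF-labelled and 32.9, 33.5 and 32.5 CPM in the STATF-labelled libraries. Replicates lay close together and the groups apart (log2 fold change 0.31, SE 0.060, edgeR adjusted p = 0.000369). On the opposite strand, 13.6% of its exon bases belong to IAH1 and AC073195.1, neither of which passed (log2 fold changes -0.14 and 0.39). ADAM10, the main sheddase of Notch receptors and of many adhesion proteins, gave 94.6, 99.1 and 97.2 CPM against 99.3, 98.6 and 95.7 CPM. Those ranges overlapped (edgeR adjusted p = 0.902), and the 95% interval of its log2 fold change was -0.12 to 0.10. The ratio of ADAM17 to ADAM10 per kilobase was 0.633 ± 0.0174 in the PTPF-labelled and 0.507 ± 0.00751 in the STATF-labelled libraries (SD, n = 3 each), without overlap.

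**Figure D4:**
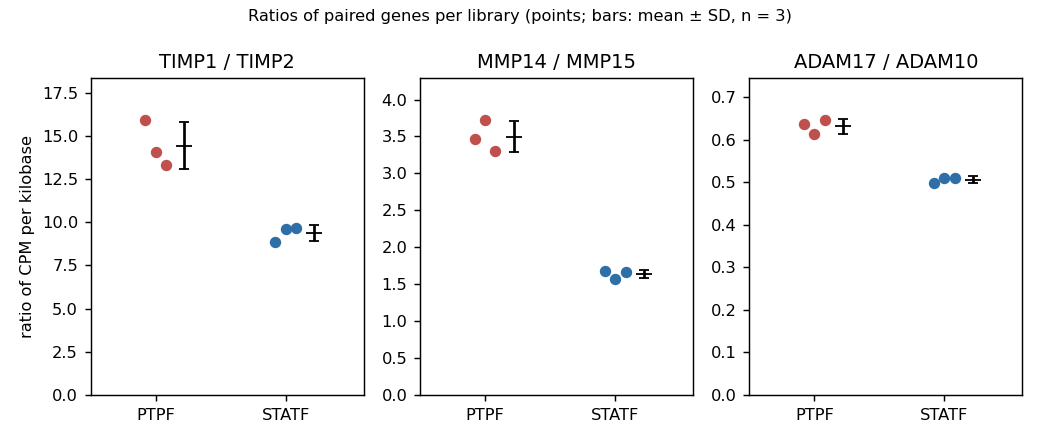
Ratio of CPM per kilobase within each library (vertical axes, starting at 0) for TIMP1 over TIMP2, MMP14 over MMP15 and ADAM17 over ADAM10; points are libraries and bars mean ± SD (n = 3). In each panel the 3 PTPF-labelled libraries lie above the 3 STATF-labelled ones, for MMP14 over MMP15 at 3.30 to 3.73 against 1.58 to 1.68. These gene pairs were picked after the values were seen.

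ADAM9, a sheddase of epithelial cells, was at 206, 208 and 206 CPM against 255, 246 and 261 CPM. It was lower in all PTPF-labelled libraries (log2 fold change -0.29, SE 0.054, edgeR adjusted p = 0.000159). ADAM15, an ADAM with an integrin-binding motif and the most abundant of its family, was at 337, 317 and 325 CPM against 365, 365 and 371 CPM. Although the groups did not overlap, its log2 fold change was only -0.17 (SE 0.055, edgeR adjusted p = 0.0269), and the call was lost when any library other than PTPF replicate 1 was left out (adjusted p 0.0798 to 0.107). ADAM12, which cleaves insulin-like growth factor binding proteins, was higher, at 46.4, 51.5 and 48.4 CPM against 43.4, 37.7 and 39.7 CPM. The lowest PTPF-labelled library lay above the highest of the others (log2 fold change 0.28, SE 0.064, edgeR adjusted p = 0.00199).

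ADAM28, best known from lymphocytes, was near the limit of detection, with 10, 12 and 11 counts in the PTPF-labelled and 24, 33 and 38 in the STATF-labelled libraries. These few counts gave a 2.51-fold lower level (log2 fold change -1.33, SE 0.355, edgeR adjusted p = 0.00702), and without STATF replicate 3 the call was lost (log2 fold change -1.14, adjusted p = 0.0603). ADAM8 and ADAM19, also proteases, did not pass. ADAM19 had 25, 25 and 23 against 19, 18 and 14 counts, apart but at an edgeR adjusted p of 0.148. None of the 4 tested ADAMs that lack a working protease site (ADAM11, ADAM22, ADAM23 and ADAM32) passed, by edgeR, DESeq2 or limma-voom, and none had an unadjusted edgeR p under 0.05. Whether reads were shared between ADAM21 and its relative ADAM20 was not tested, and the 15 to 28 counts of ADAM21 per library are few. Summed over the family, ADAMs were at 99.0 ± 0.982 CPM per kilobase in the PTPF-labelled and 110.6 ± 1.33 in the STATF-labelled libraries (SD, n = 3 each), most of it from ADAM15 and ADAM9.

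Of the ADAMTS genes that cleave large proteoglycans, 2 of 4 tested were higher and none lower. Over all genes tested, 10.1% were higher and 11.6% lower. ADAMTS9, which cuts versican, was at 13.6, 17.6 and 15.6 CPM in the PTPF-labelled and 10.1, 12.6 and 11.4 CPM in the STATF-labelled libraries. Its ranges were adjacent but did not overlap (log2 fold change 0.46, SE 0.098, edgeR adjusted p = 0.00104). ADAMTS15, also a versican-cleaving protease, was at 13.7, 14.4 and 14.8 CPM against 12.7, 11.4 and 9.86 CPM. Of its STATF-labelled libraries replicate 3 was the lowest, and the difference of 0.34 on the log2 scale (SE 0.092, edgeR adjusted p = 0.00829) was 0.25 without it and no longer passed (adjusted p = 0.0787). ADAMTS1 and ADAMTS20, the others tested of this class, had 95% intervals from -0.13 to 1.44 and from -0.15 to 0.64. ADAMTS4, ADAMTS5 and ADAMTS8, also of this class, had 34, 50 and 39 counts in all and were not tested.

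ADAMTS12, which acts on cartilage oligomeric matrix protein, showed the largest reduction in its family, at 5.34, 5.01 and 4.38 CPM against 9.12, 9.03 and 7.30 CPM. The log2 fold change was -0.79 (SE 0.122, edgeR adjusted p = 1.83e-05). Its relative ADAMTS7, which acts on the same protein, has annotated pseudogenes that could take some of its reads, and was the most abundant ADAMTS gene per kilobase, was at 20.1, 23.4 and 25.0 CPM against 24.7, 22.4 and 21.4 CPM. There the groups overlapped almost fully, with an interval from -0.17 to 0.17. ADAMTS17, a protease linked to the fibrillin matrix, was higher, at 9.16, 7.74 and 8.27 CPM against 5.89, 6.41 and 5.53 CPM (log2 fold change 0.49, SE 0.112, edgeR adjusted p = 0.00166). On the opposite strand AC084855.1 shares 5.23% of its exon bases and had 7 counts in all.

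ADAMTS13, the liver-derived protease that trims von Willebrand factor, was at 6.74, 7.25 and 7.54 CPM in the PTPF-labelled and 9.06, 7.59 and 7.51 CPM in the STATF-labelled libraries. Those ranges overlapped slightly (edgeR adjusted p = 0.318, interval -0.39 to 0.06). The procollagen-processing ADAMTS2 and ADAMTS3 did not pass either, with intervals from -0.41 to 0.20 and from -0.06 to 0.50, and ADAMTS14 of the same class had 4 counts in all. ADAMTS6 missed the threshold at 18, 31 and 34 against 50, 54 and 46 counts (log2 fold change -0.66, edgeR adjusted p = 0.0828). It was, with ADAM19, ADAMTS1 and ADAMTS3, 1 of 4 genes that did not pass although their groups were apart. Family sums were 12.4 ± 0.800 against 11.6 ± 0.814 CPM per kilobase (SD, n = 3 each) and overlapped.

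Promoter sequences from RefSeq (GRCh38.p14, 250 bases before to 50 after each gene's start) were found for 38 of the 65 genes, 25 of them tested. The AP-1 type motif TGANTCA, known from MMP promoters and identical in form on both strands, was matched in 4 of the 38 (10.5%), and in 7.71% of all 35116 promoters of that length. The STAT type motif TTCNNNGAA was matched in none of the 38 and in 7.66% of all promoters, and GGAANNGAA, searched on both strands, in the ADAM10 promoter alone of the 38 and in 7.79% of all. Matches to TGANTCA fell in MMP7, MMP10, MMP20 and ADAMTS12, of which ADAMTS12 passed the threshold (lower), MMP7 and MMP10 did not, and MMP20 was not tested. The 3 tested ones are printed to show the match, in capitals, together with the window of MMP14, which holds none of the 3 motifs; each is cut to bases before the start that lie outside GENCODE 29 exons, or to 30 bases around the match for ADAMTS12, where an exon overlaps.
MMP7 (chr11:102530754-102530867, minus strand): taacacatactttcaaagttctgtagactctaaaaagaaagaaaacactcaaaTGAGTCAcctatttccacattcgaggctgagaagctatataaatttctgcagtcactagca
MMP10 (chr11:102780629-102780748, minus strand): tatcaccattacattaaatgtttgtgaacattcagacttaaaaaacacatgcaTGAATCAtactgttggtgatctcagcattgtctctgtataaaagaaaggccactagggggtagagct
ADAMTS12 (chr5:33892056-33892085, minus strand): acactgtcagcTGAATCActccccttttag
MMP14 (chr14:22836335-22836556, plus strand): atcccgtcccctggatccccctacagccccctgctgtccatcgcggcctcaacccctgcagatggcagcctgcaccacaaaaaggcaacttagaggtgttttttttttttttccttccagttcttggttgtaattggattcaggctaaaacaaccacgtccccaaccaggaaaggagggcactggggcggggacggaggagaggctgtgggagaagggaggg
The matches start 67 bases before the start in both MMP7 and MMP10 and 84 bases before it in ADAMTS12. They describe letters in these windows and say nothing of factor binding.

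Genes that control metalloproteases, in a list of 28 activators, inhibitors and partners, had 3 higher and 6 lower of 26 tested (median log2 fold change -0.10). Over all genes tested 10.1% were higher and 11.6% lower, and 28.3% of protein-coding genes with a mean log2 CPM of 1 or more passed. The broad protease inhibitor A2M was at 75.9 ± 5.80 against 58.8 ± 5.19 CPM (SD, n = 3 each, edgeR adjusted p = 0.000169), and the serpin SERPINE2 at 55.0 ± 5.46 against 38.8 ± 4.75 CPM (SD, n = 3 each, edgeR adjusted p = 0.000175). TFPI2, a Kunitz-type inhibitor of matrix proteases, was lower (log2 fold change -0.46, edgeR adjusted p = 0.000322). Named after their values were seen, FURIN, which activates membrane-type MMPs and ADAMs, was lower (log2 fold change -0.22, edgeR adjusted p = 0.00872), and the membrane-anchored MMP inhibitor RECK did not pass (-0.10, edgeR adjusted p = 0.315).

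For the lists that follow, the shares over all genes tested were 10.1% higher and 11.6% lower. Of protein-coding genes with a mean log2 CPM of 1 or more, 28.3% passed. Among 30 tested genes for proteins that ADAMs release from the cell surface, 14 were lower and 3 higher under the PTPF label (median log2 fold change -0.20). The 3 with the smallest adjusted p were CX3CL1, a membrane-bound chemokine (log2 fold change -1.59, edgeR adjusted p = 1.86e-16), the growth factor TGFA (-0.54, edgeR adjusted p = 1.31e-06) and the hepatocyte growth factor receptor MET (-0.41, edgeR adjusted p = 2.25e-06). TGFA gave 18.1 ± 0.539 against 26.2 ± 0.911 CPM (SD, n = 3 each). Those 3 were all lower. The higher ones were TNFRSF1A (0.36), CD44 (0.31) and the Notch ligand DLL1 (0.86), named after their values were seen. TNF itself was listed at 0. Secreted matrix genes had 3 higher and 9 lower of 22 tested, with a median of -0.22. LTBP1, which stores transforming growth factor beta in the matrix, was at 25.2 ± 1.43 against 37.3 ± 3.74 CPM (SD, n = 3 each, edgeR adjusted p = 1.09e-06), and COL4A1 and COL4A2 were lower too (-0.59 and -0.51). Further genes of this list are named after their values were seen. THBS2, a matrix protein that promotes clearance of MMP2, was higher (log2 fold change 1.19, edgeR adjusted p = 0.00174). Versican (VCAN, 0.67) and LAMB1 (0.41) were higher too. Lower ones included THBS1 (-0.46), a relative of THBS2, and the abundant FN1 (-0.48), at 1597 ± 162 against 2223 ± 160 CPM (SD, n = 3 each). Other metalloproteases outside the 4 families were even, 3 higher and 3 lower of 17, with the carboxypeptidase CPD higher (0.54) and the aminopeptidase ANPEP (-0.35) and neprilysin (MME, -0.34) lower.

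Markers of cell types were read beside these genes, and the share past the threshold among all genes tested was 21.6%. The labels call the cells hepatocytes, and the 13 hepatocyte markers were all detected, with a summed level of 37197 to 43955 CPM in the PTPF-labelled and 34266 to 35193 CPM in the STATF-labelled libraries, 2 being higher and 6 lower. Biliary and progenitor markers summed to 302 to 337 against 289.9 to 308 CPM (1 higher and 2 lower of 6 tested), with EPCAM listed at 0; whether that 0, like the one of TNF, comes from the cells or from the counting cannot be told from the table. Stellate cell and fibroblast markers, cells known for MMP and TIMP expression in liver, summed to 65.0 to 79.7 against 65.5 to 82.7 CPM, and of 8 tested ACTA2 was lower (log2 fold change -0.35). Endothelial markers summed to 33.8 to 39.8 against 57.9 to 61.7 CPM, nearly all from KDR (-0.69), with 2 counts of CDH5 in all and CLEC4G at 0. Immune markers summed to 18.2 to 21.3 against 12.8 to 14.8 CPM, mostly from CD14 (0.80), with PTPRC at 1 count in all and CD3E at 0. Whether changes in these markers have a part in the metalloprotease results was not tested. The fibroblast and endothelial lists share genes such as COL1A1 and VWF with the matrix list.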

How the data were processed

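Polyadenylated RNA of 6 HepaRG libraries was measured. The values deposited by the authors are unnormalized counts for Ensembl genes, all in 1 table. The submitters' processing notes name CASAVA 1.8, HISAT2 2.0.5, featureCounts 1.5.0-p3 and the build GRCh38. For the annotation release, the strand setting and multi-mapping reads the sources used here give nothing. Levels per kilobase used the authors' deposited gene lengths, which are in bases. Samples were grouped by title.

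After filterByExpr and TMM scaling, genes were tested with edgeR 4.0.16 (glmQLFit, robust, group only; R 4.3.3) on the whole table with Benjamini-Hochberg adjustment; intervals are at 95%. Alternatives used DESeq2 1.42.0, limma 3.58.1, other scalings and filters, a replicate block and leaving out each library. The fit was tested on simulated data. Libraries of a group differed by more than sampling noise (a chi-square of 4.01 to 10.9 for each degree of freedom), and each counted as 1 replicate. The members and lists were chosen with earlier results of these data known. Named genes are all members past the threshold, the 3 most abundant per family (21 in all), and per related list the 3 with the smallest adjusted p; other genes are named outside this rule, after their values were seen, to describe members that did not pass or to complete a list. Exon overlaps came from GENCODE 29, which holds all 65 genes. Protein sequences were not used here.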

Additional observations from a re-analysis of the deposited data

How the results depend on the processing

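Of the 17 calls, 13 had the same direction and stayed past the threshold under other scalings (RLE, upper quartile, library totals), both other filters, DESeq2, limma-voom, the replicate block and each library left out; the exceptions are MMP25, ADAM15, ADAM28 and ADAMTS15, given above. No call changed sign. The 8 higher and 9 lower calls ranged from 7 to 8 and from 6 to 8 when 1 library was left out. A test against 1.5-fold left 1 higher and 0 lower (303 of all genes passed), 12 of the 17 calls being under 1.5-fold. An adjusted p of 0.01 ended the calls of ADAM15 and MMP25.

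Values near 0 changed sign. PTPRD was at -0.0612 with library totals, -0.0058 without a filter, -4.8e-05 with DESeq2, -0.0038 with limma-voom, -0.0032 with the replicate block, and -0.0757 to 0.0893 without single libraries. ADAMTS7 was at 0.0013 with RLE, 0.0092 with upper-quartile factors, 0.0012 with at least 50 counts in 3 libraries, and -0.0696 to 0.0839 without single libraries, where ADAM10 ran from -0.0284 to 0.00503 and TIMP3 from -0.0398 to 0.31. The cause was not tested.

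Some family medians moved. Without a filter, where 61 of the 65 genes entered, TIMPs were at -0.0480, ADAMs at 0.0729 and ADAMTS genes at -0.0067 and MMPs at -0.0591, and with DESeq2, which was run without the filter, at -0.0388, 0.0770, -0.00025 and -0.0541. ADAMs were at -0.0765 with library totals, where the median of all genes was -0.06, ADAMTS genes at 0.10, TIMPs at 0.11 and MMPs at -0.19; with at least 50 counts ADAMs were at -0.0517 and TIMPs at 0.0601. Without single libraries the MMP median ran from -0.21 to -0.11, that of TIMPs from -0.0398 to 0.31, of ADAMs from -0.03 to -0.01 and of ADAMTS genes from 0.08 to 0.23. Same-numbered libraries deviated little together (r of 0.03, 0.06 and 0.00077 across genes). Deviations from means of 3 libraries cannot settle whether the numbers pair them, and the labels do not say. With the replicate block 8 genes were higher and 9 lower, and no member's call changed. Of all genes, 4145 passed with that block and 3863 in the main fit. Depth limits the 25 untested genes and the low ones such as MMP1, MMP25 and ADAM28.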
